A study of Mus musculus with 8 samples.

Results

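The collagen genes of the mouse were described across 3 kinds of stem cell culture. Members were all genes whose symbol is Col, a number, a and a number, each represented by its brightest probe set, taken as the mean of all 8 arrays, among probe sets that name 1 gene. The rule found 42 of the 18194 genes measured, and it used no difference between groups. They were grouped as 11 fibrillar, 9 network-forming, 9 fibril-associated and 4 transmembrane collagens and 9 collagens outside these classes.

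Collagens are secreted or membrane-bound proteins in which 3 chains wind into a helix. Fibrillar collagens build the load-bearing fibres of connective tissue, network collagens such as type IV build the sheets of basement membranes, and fibril-associated collagens sit on the surface of fibres. In the early mouse embryo type IV collagen is laid down by the endoderm and under epithelia, whereas the interstitial fibrillar collagens belong mainly to mesenchymal cells and their descendants.

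The series compared parthenogenetic stem cells with their differentiated progeny and with embryonic stem cells. PSC (3 arrays) are stem cells of the strain C57BL/6 that were derived on day 6 from blastocysts of superovulated mice, after strontium chloride had activated the unfertilised oocytes. EB_PSC (2 arrays, C57BL/6) are embryoid bodies, aggregates in which PSC differentiated for 15 days, and ESC (3 arrays) are the embryonic stem cell line R1, grown with leukemia inhibitory factor on mouse embryonic fibroblasts as feeder cells. Strain is not given for ESC, feeder use is given for ESC alone, PSC and ESC differ in genome origin and line at once, and the labels do not say if replicate arrays are separate cultures, so the spread behind each p-value may be technical.

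Total RNA was hybridised to 1-colour Affymetrix arrays, and all levels below are deposited RMA values in log2 units, in which a difference of 1 is 2-fold. A probe set with a group mean below 5.44, the median of all values in the table, was counted as dim. Where a compared group was dim, no fold is given. Where only 1 compared group was dim, the printed size is a lower bound, also where "at least" is not written beside it. That bound holds for the printed probe set alone, since other probe sets of a gene can give less. Where both groups were dim, the size is no bound. The limit is no measured detection floor. Differences are given ± the standard error of the limma fit over all genes and were called at an adjusted p below 0.05. The 8 pluripotency markers (Pou5f1, Nanog and others) were above the limit in every group and all 8 fell in EB_PSC against PSC, with a median difference of -2.03. The 3' minus 5' signal of the Gapdh control probe sets lay between -0.06 and 0.00 in PSC, -0.09 and -0.06 in EB_PSC and 0.08 and 0.17 in ESC. That of Actb lay between 1.04 and 1.54 in PSC, 1.09 and 1.17 in EB_PSC and 0.69 and 1.13 in ESC.

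Of the 42 collagen genes, 20 were above the dim limit in every group, 15 were below it in every group and 7 were above it in some groups only. The 15 dim members had array values between 2.88 and 5.54 and included the network genes Col4a3, Col4a4, Col8a2 and Col10a1, the fibrillar genes Col11a2 and Col24a1, and the epidermal anchoring gene Col17a1. The limit is no estimate of background, so a dim level does not show that a transcript was absent. In all, 23 members were called in at least 1 of the comparisons.

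The comparison of EB_PSC with PSC asked what changed on differentiation of the parthenogenetic cells. Transcripts of the fibre-building genes Col1a1, Col1a2, Col3a1, Col5a1 and Col5a2 and of the basement membrane genes Col4a1 and Col4a2 rose 7.22-fold to 42.7-fold. Col8a1 and Col11a1, which had been dim in PSC, rose by at least 4.81 and 3.46 log2 units on their brightest probe sets. Col5a3, Col18a1 and 3 fibril-associated genes fell. Of the 42 members, 16 were higher and 5 lower, and 21 did not pass the test. Of all genes, 18.8% were higher and 25.2% lower, or 43.9% in either direction. By 1 log2 unit or more, 12 members were higher and 1 was lower, where the shares of all genes were 8.56% and 7.42%. Both EB_PSC arrays lay above all PSC arrays for 17 members and below them for 10, which held for 25.1% and 37.8% of all genes. The median difference over the members was 0.15, against -0.09 over all genes. Over the 27 members above the limit in at least 1 of these groups it was 0.50, against -0.13 for all genes so chosen. That choice uses the compared levels, so it partly sets this median and gives no support for a rise. Col4a5, Col8a1, Col11a1, Col13a1 and Col14a1 were kept through EB_PSC only, and Col5a3 through PSC only. With cyclic loess the split over all genes turned from 3417 higher and 4578 lower to 4185 higher and 3566 lower, while the members stood at 17 higher and 4 lower.

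Among the fibrillar collagens 7 of 11 rose, 1 fell and 3 were not called, with a median difference of 2.85. Col3a1, whose chains form the type III fibrils of vessel walls and other stretchable tissue, stood at 6.56, 6.40 and 7.09 in PSC and at 11.86 and 12.34 in EB_PSC. The groups were far apart, and the rise of 5.42 ± 0.22 was 42.7-fold (limma adjusted p = 3.35e-10). Col5a2, a chain of type V collagen, which starts fibrils and limits their width, lies on chromosome 1 like Col3a1. Its values were 6.25, 5.94 and 6.04 in PSC and 10.82 and 11.23 in EB_PSC, a rise of 4.94 ± 0.16 or 30.8-fold (limma adjusted p = 4.35e-11).

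The partner chain gene Col5a1 measured 6.97, 6.72 and 6.98 in PSC and 10.17 on both EB_PSC arrays. It rose by 3.28 ± 0.13, which is 9.73-fold (limma adjusted p = 3.20e-10). A second probe set of Col5a1 rose by 3.29, and a further 1, dim in PSC, by at least 1.87. Col5a3, the remaining type V chain gene, went the other way. Its PSC arrays gave 6.01, 6.07 and 6.08 and its EB_PSC arrays 4.59 and 5.30, so it fell by at least 1.11 ± 0.17 to below the dim limit (limma adjusted p = 0.000132). Its second probe set was dim in both groups and differed by -0.15, with an adjusted p over all probe sets of 0.602, and the mean of both probe sets fell by 0.63. Thus the 3 chain genes of type V collagen did not move together.

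The pair of type I chain genes, which encode the main protein of bone, skin and tendon, both rose. Col1a1 measured 5.40, 6.03 and 5.81 in PSC and 8.77 and 9.35 in EB_PSC, a rise of 3.31 ± 0.27 or 9.93-fold (limma adjusted p = 3.29e-07). Col1a2 measured 7.73, 7.54 and 7.69 in PSC and 10.36 and 10.65 in EB_PSC, a rise of 2.85 ± 0.14 or 7.22-fold (limma adjusted p = 1.94e-09). In both genes the lowest EB_PSC array lay more than 2 log2 units above the highest PSC array. A second probe set of Col1a1 rose by 3.29, close to the first, whereas a second probe set of Col1a2 rose by 4.78 and a further 1, dim in every group, differed by 0.15.

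The fibrillar collagens of cartilage were unequal. Col11a1, a type XI chain gene, was dim in PSC (3.99, 3.89 and 4.21) and reached 7.79 and 7.20 in EB_PSC, a rise of at least 3.46 ± 0.17 (limma adjusted p = 2.56e-09). A second probe set of Col11a1 rose by at least 5.18. Col2a1, whose product is the main collagen of cartilage, was above the limit in every group. It measured 6.53, 6.28 and 6.30 in PSC and 6.81 and 7.38 in EB_PSC and rose by 0.72 ± 0.16, or 1.65-fold (limma adjusted p = 0.00255). The call rested on the higher embryoid body array. Without EB_PSC 2 the rise was 0.44 and did not pass (adjusted p = 0.057, where the alternatives ranged from 0.000432 to 0.057). Col11a2 and Col24a1 were dim throughout, and Col27a1, a minor fibrillar collagen, measured between 7.45 and 7.57 in PSC and 7.49 and 7.99 in EB_PSC. The differences of these 3 genes ran from -0.37 to 0.24, and their 95% intervals lay within -0.73 and 0.56. On a second probe set, dim in PSC, Col27a1 was higher in EB_PSC by at least 0.46 ± 0.16 (limma adjusted p = 0.0476 over all probe sets).

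**Figure D1:**
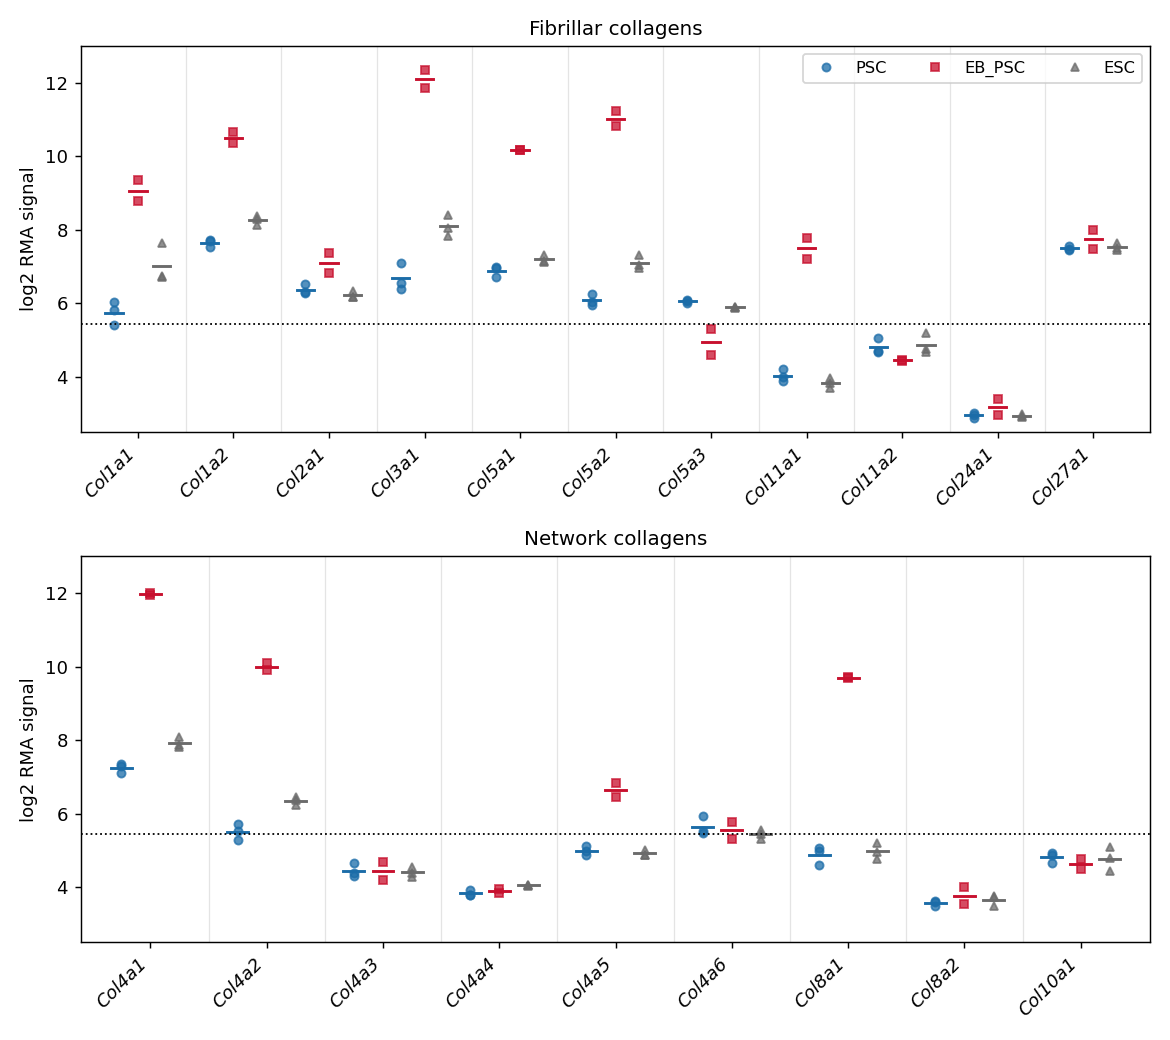
Deposited log2 RMA signal (vertical axis) of the 11 fibrillar collagen genes (upper panel) and 9 network collagen genes (lower panel). Each point is 1 array, horizontal bars are group means and the dotted line is the dim limit of 5.44. Both EB_PSC arrays stand far above PSC and ESC for Col3a1 (mean 12.10 in EB_PSC), Col5a2 (11.02), Col4a1 (11.97) and Col8a1 (9.70), while Col5a3 lies below the limit in EB_PSC alone (mean 4.95).

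Among the network collagens 4 of 9 were higher in EB_PSC and 5 did not pass the test. The 6 type IV chain genes lie in head-to-head pairs, in which neighbours are read in opposite directions from neighbouring starts. The promoter windows of the pairs Col4a1 with Col4a2 and Col4a5 with Col4a6 are shown because the members of the first moved together and those of the second did not. Each window runs from 250 bases before to 50 bases after the RefSeq start in the assembly GRCm38.p6, 5′ to 3′ on the strand of the gene. Col4a1 is at chr8:11312777-11313076 on the minus strand and Col4a2 at chr8:11312555-11312854 on the plus strand, and capitals in these lines mark the 78 bases that both windows share. Col4a5 is at chrX:141475169-141475468 on the plus strand and Col4a6 at chrX:141474027-141474326 on the minus strand, and capitals in these lines mark matches on either strand to the CCAAT box, to the GC box GGGCGG and to the TATA box TATAAA.
Col4a1: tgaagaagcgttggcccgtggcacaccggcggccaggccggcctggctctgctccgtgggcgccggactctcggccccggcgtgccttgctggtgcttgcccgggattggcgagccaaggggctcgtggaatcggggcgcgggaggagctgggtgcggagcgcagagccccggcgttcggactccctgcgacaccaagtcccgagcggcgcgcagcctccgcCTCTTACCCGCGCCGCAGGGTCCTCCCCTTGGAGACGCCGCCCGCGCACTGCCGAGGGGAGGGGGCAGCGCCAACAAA
Col4a2: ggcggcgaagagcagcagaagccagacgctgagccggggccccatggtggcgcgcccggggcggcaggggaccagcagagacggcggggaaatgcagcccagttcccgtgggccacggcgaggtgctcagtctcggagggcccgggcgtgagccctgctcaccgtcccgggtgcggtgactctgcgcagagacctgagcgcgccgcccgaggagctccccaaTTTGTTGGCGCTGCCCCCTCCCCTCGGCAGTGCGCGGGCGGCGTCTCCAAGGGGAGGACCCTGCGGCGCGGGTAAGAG
Col4a5: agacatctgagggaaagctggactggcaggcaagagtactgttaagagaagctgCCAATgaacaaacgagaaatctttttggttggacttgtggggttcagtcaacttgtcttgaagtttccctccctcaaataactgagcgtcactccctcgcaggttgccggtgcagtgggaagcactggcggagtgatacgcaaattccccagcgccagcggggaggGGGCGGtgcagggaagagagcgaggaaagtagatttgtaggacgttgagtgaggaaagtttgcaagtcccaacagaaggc
Col4a6: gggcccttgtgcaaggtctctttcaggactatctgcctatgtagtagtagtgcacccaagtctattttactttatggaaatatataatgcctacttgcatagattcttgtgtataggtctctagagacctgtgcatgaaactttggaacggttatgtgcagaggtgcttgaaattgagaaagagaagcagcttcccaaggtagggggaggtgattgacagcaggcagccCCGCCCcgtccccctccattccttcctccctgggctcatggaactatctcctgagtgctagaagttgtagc
The starts of Col4a1 and Col4a2 are 21 bases apart, so each window holds the start of both genes. Those of Col4a5 and Col4a6 are 1343 bases apart and their windows share 0 bases. The G and C content was 74.0% and 73.7% in the windows of Col4a1 and Col4a2, 52.7% in that of Col4a5 and 48.3% in that of Col4a6. Windows were matched for 33 of the 42 members, as 36 windows, since some genes have several starts. Of these 36, 22 held GGGCGG or its reverse complement, compared with 35.7% of 32851 windows of all genes. CCAAT was in 13 of the 36, against 37.4% of all windows, and TATAAA in 5 of the 36, against 13.6%. Matches to different motifs may overlap, and a match describes the letters only. The pairs were chosen by their changes, and no window was matched for Col4a3 of the remaining pair. The part of start spacing, base content or motifs in the changes of these genes was not tested.

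Col4a1 and Col4a2 encode the chains of the type IV collagen found in nearly all basement membranes. Col4a1 measured 7.34, 7.09 and 7.30 in PSC and 11.95 and 11.99 in EB_PSC, a rise of 4.73 ± 0.13 or 26.5-fold (limma adjusted p = 2.01e-11). Col4a2 measured 5.28, 5.72 and 5.53 in PSC and 9.89 and 10.10 in EB_PSC, a rise of 4.49 ± 0.15 or 22.4-fold (limma adjusted p = 4.83e-11). The arrays of PSC and EB_PSC were far apart for both genes of the pair whose shared window is printed above. A second probe set of Col4a1 rose by 3.52.

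The remaining type IV chain genes build tissue-restricted basement membranes, such as those of the kidney glomerulus. Col4a5 was dim in PSC (4.97, 4.88 and 5.13) and reached 6.82 and 6.45 in EB_PSC, a rise of at least 1.64 ± 0.14 (limma adjusted p = 6.21e-07). Its second probe set went from a mean of 3.66 to 8.81, a rise of 5.15 ± 0.13. The size of the change thus depended on the probe set, while the direction did not. Col4a6, the neighbour of Col4a5 on chromosome X, measured 5.92, 5.52 and 5.48 in PSC and 5.31 and 5.78 in EB_PSC. These values overlapped, and the difference was -0.10 ± 0.17 with a 95% interval from -0.46 to 0.27 (limma adjusted p = 0.698). Col4a3 and Col4a4, a pair on chromosome 1, were dim in every group and differed by -0.01 ± 0.17 and 0.06 ± 0.12.

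Col8a1, a short-chain network collagen known from vessel walls and the cornea, measured 4.61, 5.05 and 4.98 in PSC and 9.68 and 9.71 in EB_PSC. Its rise from dim to bright was at least 4.81 ± 0.16 (limma adjusted p = 5.54e-11). The other probe sets of Col8a1 rose less, by 2.09 and by 0.61, the latter dim in every group. Col8a2, the partner chain gene, and Col10a1, the collagen of hypertrophic cartilage, were dim throughout and did not pass the test.

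The fibril-associated collagens split evenly, with 3 of 9 higher, 3 lower and 3 not called, and a median difference of -0.10. Col14a1, which sits on type I fibrils, was dim in PSC (4.70, 4.98 and 4.53) and stood at 6.12 and 5.82 in EB_PSC, a rise of at least 1.23 ± 0.17 (limma adjusted p = 5.80e-05). The other 2 probe sets of Col14a1 were dim in every group and differed by 0.02 and 0.08, so the mean over its probe sets rose by 0.44. Col12a1, a relative with the same position on fibrils, measured 6.81, 6.79 and 6.71 in PSC and 7.24 and 7.30 in EB_PSC and rose by 0.50 ± 0.12 (1.42-fold, limma adjusted p = 0.00325). On a second probe set, dim in PSC, Col12a1 rose by at least 2.63. Its remaining probe sets were dim in every group and differed by -0.065 and -0.083.

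The type IX chain genes, which coat cartilage fibrils, moved in opposite directions. Col9a1 measured 6.15, 6.09 and 5.99 in PSC and 6.68 and 6.45 in EB_PSC and rose by 0.49 ± 0.13 (limma adjusted p = 0.00865). Without EB_PSC 1 the rise was 0.38 and was not called (adjusted p = 0.0967, where the alternatives ranged from 2.43e-07 to 0.0967). The second probe set of Col9a1, dim in PSC, rose by at least 3.00. Col9a3 measured 6.69, 6.76 and 6.80 in PSC and 6.33 and 5.86 in EB_PSC, and fell by 0.66 ± 0.14 (1.58-fold, limma adjusted p = 0.00181) or by 0.43 without EB_PSC 2. Col9a2 was dim in both groups, with means of 4.85 and 4.22, and fell by 0.63 ± 0.22 (limma adjusted p = 0.0349), a call lost without any 1 of the 5 arrays compared (adjusted p of 0.0533 to 0.131, where the alternatives ranged from 0.00159 to 0.131). Col20a1, a minor member, fell by 0.51 ± 0.15 (limma adjusted p = 0.0142), which was lost without PSC 2 (-0.40, adjusted p = 0.0622) or EB_PSC 1 (-0.36, adjusted p = 0.151, where the alternatives ranged from 0.0055 to 0.151). Col16a1, Col19a1 and Col22a1 differed by -0.13 to -0.01.

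Of the 4 transmembrane collagens, Col23a1 was higher and 3 did not pass the test. Col23a1 was dim in both groups, at 4.26, 4.20 and 4.01 in PSC and 4.87 and 4.58 in EB_PSC. Its difference of 0.57 ± 0.14 (limma adjusted p = 0.0036) was not called without EB_PSC 1 (0.42, adjusted p = 0.0586, where the alternatives ranged from 0.000145 to 0.0586). The other probe sets of Col23a1, dim in every group, were also called higher, by 0.96 and 0.39 (limma adjusted p = 0.000211 and 0.0376 over all probe sets). Col13a1, found at cell-matrix contacts such as the neuromuscular junction, went from a mean of 5.30 to 5.65 without passing. Col25a1 stood above the limit in every group, at 6.14 to 6.47 in PSC and 6.08 and 6.15 in EB_PSC. On a second probe set, dim in every group, Col25a1 was higher in EB_PSC by 0.66 ± 0.23 (limma adjusted p = 0.0386 over all probe sets).

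Among the collagens outside these classes 1 of 9 was higher, 1 was lower and 7 did not pass. Type VI collagen forms beaded filaments around cells, from chains encoded by Col6a1, Col6a2 and Col6a3, and its chain genes were unequal here. Col6a3 measured 6.19, 6.42 and 6.51 in PSC and 7.41 and 7.90 in EB_PSC, a rise of 1.28 ± 0.18 or 2.43-fold (limma adjusted p = 4.76e-05). Col6a1 differed by 0.17 ± 0.18, with a 95% interval from -0.21 to 0.55, and Col6a2 by 0.13 ± 0.16, with an interval from -0.21 to 0.47. For both, all PSC values fell between the EB_PSC values, which were 6.24 and 6.79 for Col6a1 and 7.59 and 8.14 for Col6a2.

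Col18a1, a basement membrane collagen whose end fragment is endostatin, was bright in all groups. It measured 10.30, 10.33 and 10.27 in PSC and 9.31 and 9.36 in EB_PSC, and fell by 0.97 ± 0.17, or 1.95-fold (limma adjusted p = 0.000324). It was the only member represented by a probe set of the _s_at kind, which can match several transcripts. With its other probe set in that place it fell by 0.44 (adjusted p = 0.0475, where the alternatives ranged from 4.47e-05 to 0.0475). Col7a1, the anchoring fibril collagen under the epidermis, measured 6.39 to 6.55 in PSC and 6.43 and 6.55 in EB_PSC. The differences of the 7 genes that did not pass ran from -0.39 to 0.17.

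**Figure D2:**
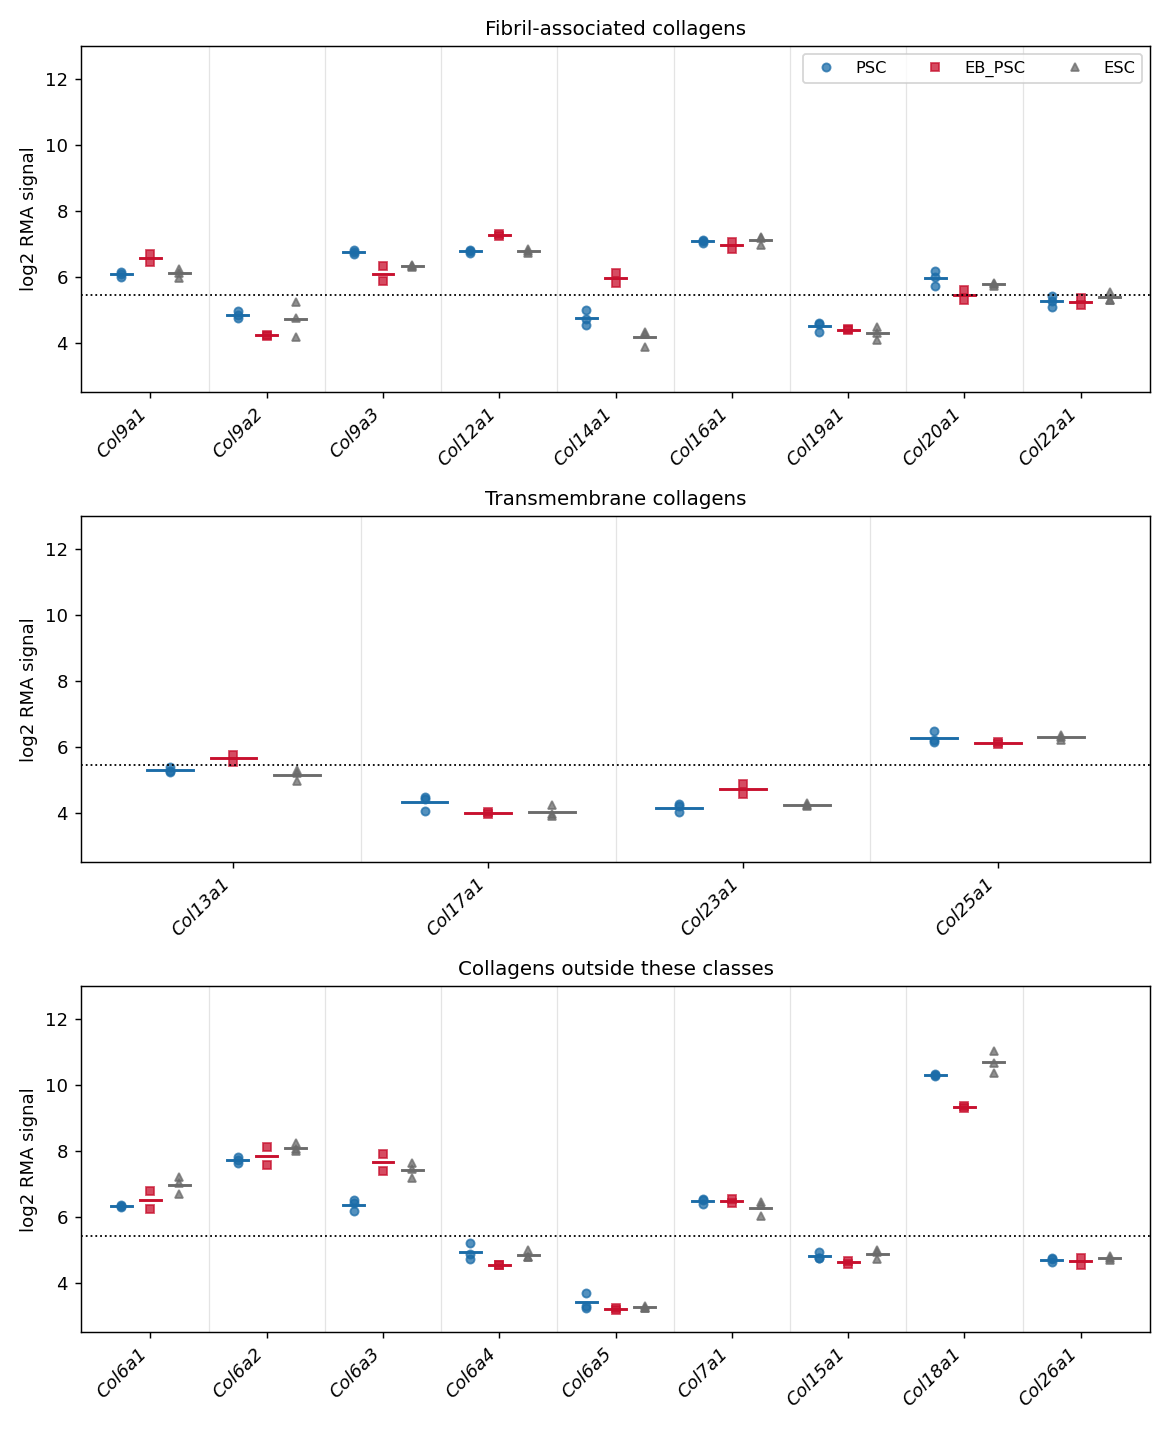
Deposited log2 RMA signal (vertical axis) of the 9 fibril-associated, 4 transmembrane and 9 other collagen genes, with 1 point per array, group means as horizontal bars and the dim limit of 5.44 as a dotted line. Most groups overlap or lie close together, apart from Col14a1 and Col6a3, which are higher in EB_PSC than in PSC, and Col18a1, which is lower in EB_PSC (mean 9.34) than in PSC (10.30) and ESC (10.69).

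The comparison of PSC with ESC asked how the undifferentiated parthenogenetic cells differ from the embryonic stem cell line. In PSC, 8 genes of interstitial, type IV and type VI collagens were lower, by 0.62 to 1.41 log2 units, and the fibril-associated genes Col9a3 and Col14a1 were higher. In counts, 2 of 42 members were higher, 8 were lower and 32 did not pass the test, beside 9.07% of all genes higher and 11.7% lower. By 1 log2 unit or more 4 members were lower, where 1.47% of all genes were higher and 1.55% lower by that much. The median difference was -0.03 over the members and 0.01 over all genes. The split over all genes turned from 1651 higher and 2131 lower to 2026 and 1870 with repeated quantile normalization and to 1974 and 1933 with cyclic loess, while the members stayed at 2 higher and 8 lower under both.

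Every PSC array lay below every ESC array for 12 members, where this held for 19.1% of all genes. The 12 include all 8 called members. For 3 members every PSC array lay above every ESC array, where this held for 17.4% of all genes. Col3a1 stood at 6.40 to 7.09 in PSC and at 8.06, 8.39 and 7.84 in ESC, and Col5a2 at 5.94 to 6.25 in PSC and at 7.05, 7.32 and 6.96 in ESC. Col5a2 fell by 1.03 ± 0.14, or 2.04-fold (limma adjusted p = 0.000249). In both genes the second probe set was dim in PSC and in ESC and showed little, with differences of -0.26 for Col3a1 and -0.11 for Col5a2.

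The type I genes gave values that depended on the probe set. Col1a1 measured 7.63, 6.74 and 6.70 in ESC, all above the 5.40 to 6.03 of PSC. A second probe set of Col1a1 was above the dim limit in both groups, with means of 5.77 in PSC and 5.96 in ESC, and its difference of -0.19 ± 0.16 was not called (limma adjusted p = 0.501 over all probe sets). Col1a2 measured 8.38, 8.31 and 8.12 in ESC and was lower in PSC by 0.62 ± 0.12, or 1.53-fold (limma adjusted p = 0.00313). Here the second probe set gave a larger difference, -1.21 ± 0.18. Col5a1 was -0.31 ± 0.12 lower without passing (limma adjusted p = 0.082), and was called with array weights (-0.28, adjusted p = 0.0439) and when its probe sets were averaged (-0.40, adjusted p = 0.00582, where the alternatives ranged from 0.00582 to 0.284). A second probe set, above the limit in both groups, was called, at -0.59 ± 0.13 (limma adjusted p = 0.00711 over all probe sets). The remaining probe set of Col5a1 differed by -0.31 and was not called.

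The head-to-head genes Col4a1 and Col4a2 were again side by side. Col4a1 measured 8.10, 7.82 and 7.87 in ESC against 7.09 to 7.34 in PSC, and Col4a2 measured 6.38, 6.23 and 6.45 in ESC against 5.28 to 5.72 in PSC. Both sets of arrays were apart, and the 95% intervals of the differences were -0.94 to -0.43 for Col4a1 and -1.13 to -0.55 for Col4a2. The other type IV chain genes, Col4a3 to Col4a6, differed by -0.22 to 0.20 without passing.

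All 3 main type VI chain genes had lower means in PSC, and 2 of them passed. Col6a3 measured 7.63, 7.44 and 7.17 in ESC and was lower in PSC by 1.04 ± 0.16, or 2.06-fold (limma adjusted p = 0.000452). Col6a1 measured 6.36, 6.32 and 6.34 in PSC and 7.20, 7.02 and 6.71 in ESC and fell by 0.64 ± 0.16, or 1.55-fold (limma adjusted p = 0.0113). Without ESC 1 its fall of 0.52 did not pass (adjusted p = 0.0501, where the alternatives ranged from 0.00492 to 0.0501). Col6a2 differed by -0.37 ± 0.14 (limma adjusted p = 0.0832).

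Higher in PSC were 2 fibril-associated genes, and on their brightest probe sets both calls depended on single arrays. Col9a3 measured 6.69, 6.76 and 6.80 in PSC and 6.34, 6.30 and 6.32 in ESC, a difference of 0.43 ± 0.13 or 1.35-fold (limma adjusted p = 0.0282). The call was lost without any 1 of the 6 arrays compared (adjusted p of 0.0515 to 0.0865, where the alternatives ranged from 0.0039 to 0.0865). Another probe set of Col9a3, with means of 6.07 in PSC and a dim 4.72 in ESC, gave a larger difference of at least 1.35 ± 0.25 (limma adjusted p = 0.00288 over all probe sets). Its remaining probe set was dim in every group and differed by 0.07. Col14a1 was dim in both groups, with means of 4.74 and 4.16. Its difference of 0.58 ± 0.16 (limma adjusted p = 0.0178) was lost without PSC 1 (0.60, adjusted p = 0.0543), PSC 2 (0.46, 0.094) or ESC 1 (0.44, 0.077), and when its probe sets were averaged (0.11, adjusted p = 0.598, where the alternatives ranged from 0.00701 to 0.598). Col18a1 differed by -0.39 ± 0.15 (limma adjusted p = 0.0836). Without the _s_at probe set, its remaining probe set had means of 9.88 in PSC and 10.59 in ESC. That difference of -0.71 ± 0.15 was called (limma adjusted p = 0.00792 over all probe sets). Col18a1 was also called with its probe sets averaged, with array weights and without ESC 2. Its limma adjusted p ranged from 0.00474 to 0.322 over the alternatives. The 4 transmembrane genes did not pass, with 95% intervals within -0.34 and 0.58.

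Markers of fibroblasts, the cells used as feeders for ESC, were counted in the same comparison. Of 11 measured 5 were lower in PSC than in ESC and 6 did not pass, beside the 11.7% of all genes that were lower. Pdgfrb, a growth factor receptor of mesenchymal cells, measured 3.91, 3.71 and 4.26 in PSC and 6.34, 5.48 and 6.20 in ESC. S100a4, a calcium-binding protein gene, was 2.74-fold lower. Thy1, a surface protein of fibroblasts, was 2.32-fold lower, and Postn, a matrix protein, went from a mean of 6.22 in ESC to a dim 5.37 in PSC. The summed level of the list, on a log2 scale, was 12.58 to 12.81 in PSC and 12.72 to 12.93 in ESC, with 5 of the 11 markers dim in PSC and 2 dim in ESC. The 3' minus 5' signal of Gapdh was lower in every PSC array than in every ESC array, while that of Actb had the higher mean in PSC (1.27 against 0.94). Of the 8 pluripotency markers 2 were lower in PSC and 6 did not pass, with a median difference of -0.34. Zfp42, a marker of undifferentiated cells, was 6.62-fold lower and Pou5f1 1.53-fold lower. The part of feeder cells, of RNA quality and of the state of the stem cells in the collagen differences was not tested. In these bulk samples, fewer cells of a type and less RNA per cell cannot be told apart.

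**Figure D3:**
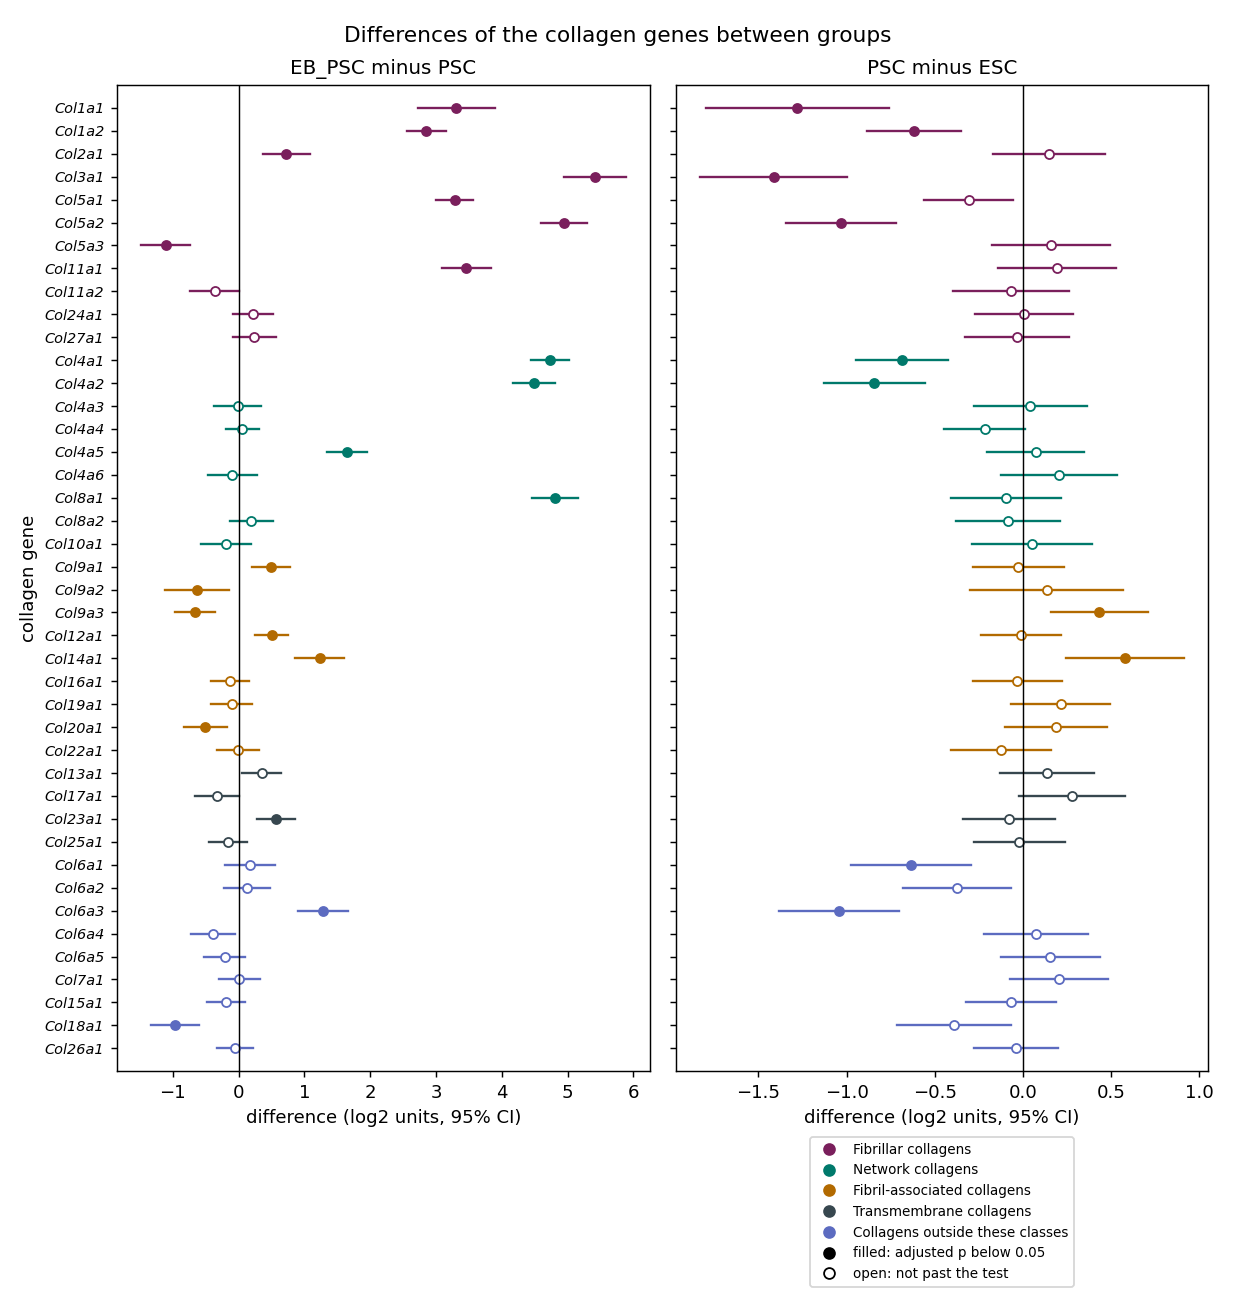
Differences of the 42 collagen genes in log2 units (horizontal axes, which have different scales), EB_PSC minus PSC on the left and PSC minus ESC on the right, with 95% confidence intervals and filled points for limma adjusted p below 0.05. The left panel holds 16 higher and 5 lower members, with Col3a1 at 5.42 and Col5a3 at -1.11 at the ends, and the right panel 2 higher and 8 lower, with Col14a1 at 0.58 and Col3a1 at -1.41 at the ends. Both panels use the same PSC arrays.

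Set against ESC, the embryoid bodies had the same collagen types in front. Each difference here is that of EB_PSC to PSC plus that of PSC to ESC. A rising gene that was lower in PSC than in ESC thus had to show a smaller rise here. This comparison shares the EB_PSC arrays with that of EB_PSC against PSC and the ESC arrays with that of PSC against ESC, so it is no independent repeat of either. Of 42 members 16 were higher, 3 were lower and 23 did not pass. Of all genes, 19.3% were higher and 25.6% lower, or 44.9% in either direction. By 1 log2 unit or more 11 members were higher and 1 was lower, where the shares of all genes were 8.81% and 9.23%. Both EB_PSC arrays lay above all ESC arrays for 16 members and below them for 9, which held for 25% and 36.1% of all genes. The median difference was 0.11 over the members and -0.07 over all genes. With cyclic loess the split over all genes turned from 3513 higher and 4652 lower to 4435 higher and 3626 lower, and that of the members was 17 higher and 2 lower.

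Side by side, Col3a1 was 16.0-fold higher than in ESC and 42.7-fold higher than in PSC, Col5a2 15.1-fold and 30.8-fold, Col4a1 16.5-fold and 26.5-fold, and Col4a2 12.5-fold and 22.4-fold. For Col1a1 the values were 4.09-fold and 9.93-fold, for Col1a2 4.71-fold and 7.22-fold and for Col5a1 7.86-fold and 9.73-fold. Each of these genes kept EB_PSC arrays above all arrays of both stem cell groups. Col8a1, Col11a1, Col14a1 and Col4a5 were dim in both stem cell groups, so their brightest probe sets gave lower bounds in log2 units. Against ESC and PSC they were 4.72 and 4.81 for Col8a1 and 3.66 and 3.46 for Col11a1. For Col14a1 they were 1.81 and 1.23, and for Col4a5 1.72 and 1.64.

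Col2a1 was 0.87 ± 0.16 higher in EB_PSC than in ESC, or 1.83-fold (limma adjusted p = 0.000597). Col12a1 was 0.49 ± 0.12 higher (limma adjusted p = 0.00361). Col9a1, Col13a1 and Col23a1 were higher by 0.47, 0.49 and 0.49, and all 3 calls were lost without EB_PSC 1 (adjusted p = 0.119, 0.111 and 0.121, the highest over the alternatives of ranges from 1.68e-07, 0.00601 and 0.000313). On another probe set, dim in every group, Col23a1 was higher by 1.07 (limma adjusted p = 7.13e-05 over all probe sets). The remaining probe set of Col23a1 differed by 0.14 and was not called. The second probe set of Col9a1, dim in ESC, was higher by at least 3.14. The type VI genes stood apart from the fibrillar ones. Col6a3 measured 7.41 and 7.90 in EB_PSC and 7.17 to 7.63 in ESC, so the groups overlapped, and its difference of 0.24 ± 0.18 had a limma adjusted p of 0.314. Col6a1 was lower in EB_PSC than in ESC by 0.46 ± 0.18 (limma adjusted p = 0.0461), a call lost in 11 alternatives besides the 2-fold threshold. The difference was -0.19 without EB_PSC 1 (adjusted p = 0.507) and -0.74 without EB_PSC 2 (adjusted p = 0.00745), the ends of its range. Col18a1 was lower than in ESC by 1.36 ± 0.17, or 2.56-fold (limma adjusted p = 1.49e-05). Col5a3, dim in EB_PSC, was lower by 0.95 ± 0.17 (limma adjusted p = 0.000426). For Col5a3 the size depended on the arrays and probe sets, with -0.59 without EB_PSC 1 and -0.50 with its probe sets averaged.

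Probe sets of 1 gene did not always give the same size of difference. The 42 members have 82 probe sets, and 27 members have several. In each of the 3 comparisons 0 genes had probe sets called in opposite directions by limma over all probe sets. Col25a1 and Col27a1 were called higher in EB_PSC than in PSC on a second probe set but not on the brightest. Between EB_PSC and PSC the brightest probe set, which represents the gene, rose less than 1 other for Col4a5, Col9a1, Col11a1, Col12a1 and Col1a2. For Col8a1, Col14a1, Col4a1 and Col5a2 the brightest showed the largest rise. The brightest of Col9a1 and Col12a1 were above the limit in every group, whereas the second of each was dim in PSC and bright in EB_PSC. For these genes the fold of the transcript is not settled by these arrays.

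**Figure D4:**
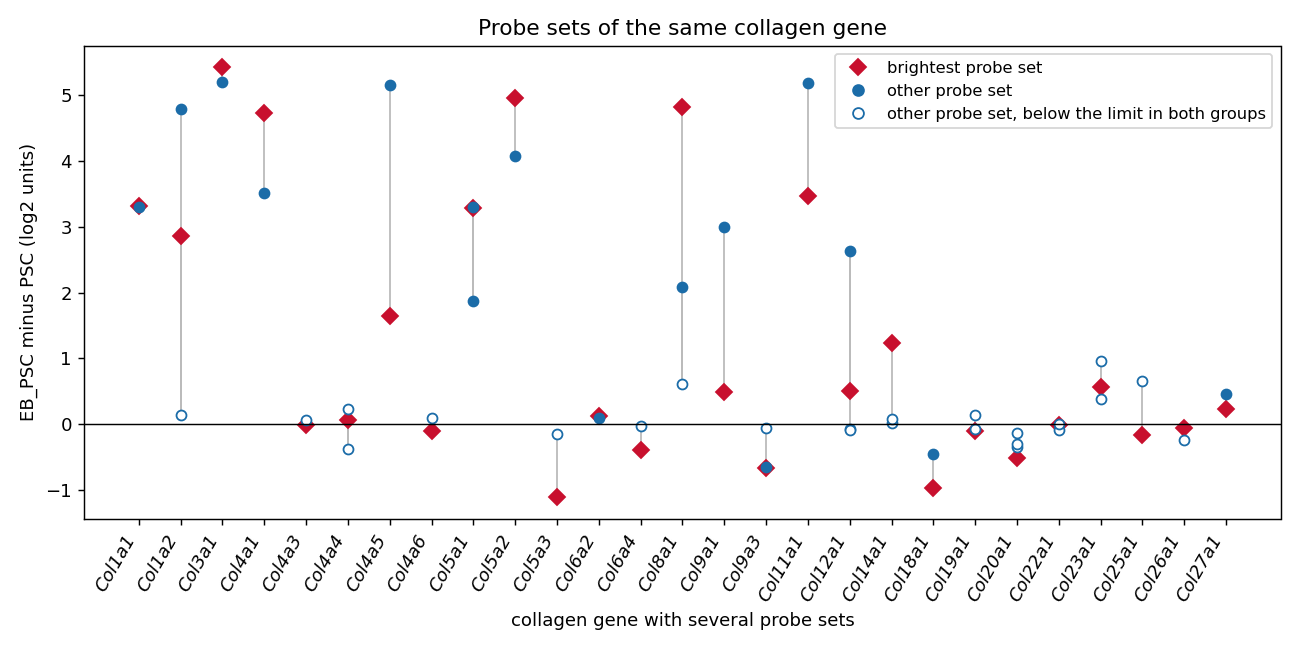
EB_PSC minus PSC difference in log2 units (vertical axis) for every probe set of the 27 collagen genes that have several, with the brightest probe set as a diamond and the others as circles, open where dim in both groups. The widest gaps between filled points are those of Col4a5 (1.64 and 5.15), Col8a1 (4.81 and 2.09), Col9a1 (0.49 and 3.00) and Col12a1 (0.50 and 2.63).

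Collagen chains are modified and folded in the endoplasmic reticulum, exported, trimmed, crosslinked, bound by proteoglycans and receptors and at last degraded, and lists of genes for these steps were counted beside the chains. Between EB_PSC and PSC, 18.8% of all genes were higher and 25.2% lower, and these shares belong beside the counts of each list in this comparison. Of 15 genes for chain modification and folding measured, 5 were higher in EB_PSC than in PSC, 2 were lower and 8 did not pass. Serpinh1, which encodes the collagen chaperone HSP47, measured 6.94, 6.80 and 7.39 in PSC and 10.33 and 10.50 in EB_PSC, a rise of 3.37 ± 0.19 or 10.3-fold (limma adjusted p = 9.78e-09). P3h2, a prolyl hydroxylase of another kind, was dim in PSC and rose by at least 1.34 ± 0.14 (limma adjusted p = 4.26e-06). P4ha2, a subunit of the prolyl hydroxylase that stabilises the helix, rose 1.69-fold, and Ppib, a proline isomerase, rose 1.81-fold. P4ha1, the other main prolyl hydroxylase subunit, differed by -0.08 ± 0.16. The median difference of the list was 0.24, against -0.09 over all genes.

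Of 11 genes for export and propeptide trimming 5 rose, 1 fell and 5 were not called. Sec24d, part of the vesicle coat that carries collagen out of the endoplasmic reticulum, rose 3.67-fold, and Bmp1, the enzyme that cuts off the end propeptide, rose 2.31-fold. Pcolce2, an enhancer of that cut, fell 2.16-fold. Adamts3, a propeptide-cutting protease, was dim in both groups and rose by 1.64 ± 0.25, or by 0.74 with its probe sets averaged. Of 4 lysyl oxidase genes, which make the crosslinks, 2 were higher. Loxl1 measured 6.58, 6.43 and 6.27 in PSC and 8.36 and 8.37 in EB_PSC, a rise of 1.94 ± 0.17 (limma adjusted p = 7.19e-07) that was 1.11 with its probe sets averaged, and Lox rose by 0.86 ± 0.16 (limma adjusted p = 0.000457), or 0.53 so averaged.

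Of 8 proteoglycans that bind fibrils, 4 were higher and 1 was lower. Lum, which encodes lumican, was dim in PSC (3.85, 4.03 and 3.76) and reached 9.29 and 10.80 in EB_PSC, a rise of at least 6.16 ± 0.30 (limma adjusted p = 1.98e-09). Dcn, for decorin, rose by 2.45 ± 0.32, or by 1.62 without EB_PSC 2 and by 1.20 with its probe sets averaged. Of 9 receptors 2 were higher and 2 were lower, close to the 18.8% and 25.2% of all genes. Itgb1, the integrin chain shared by the collagen-binding integrins, rose 4.82-fold, with 2.27 log2 units for the brightest probe set and 0.97 for the average of all its probe sets, while the discoidin receptor gene Ddr2 differed by 0.02 ± 0.12. Of 10 genes for cleavage and its inhibition 6 were higher, among them the collagenase gene Mmp14 (3.29-fold) and the gelatinase gene Mmp2 (3.58-fold) on 1 side and the inhibitor gene Timp3 (at least 3.20 ± 0.14) on the other.

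The same lists were counted between PSC and ESC, where 9.07% of all genes were higher and 11.7% lower. Pcolce2 was 2.56-fold lower in PSC. Crtap, which helps to hydroxylate collagen prolines, was 2.22-fold lower in PSC, Sec24d 1.69-fold and the proteoglycan gene Bgn 2.26-fold, and P4ha1 was 1.56-fold higher. Serpinh1 differed by -0.12 ± 0.17 without passing the test. In counts, 2 of 15 modification genes were higher and 2 lower, 3 of 11 export genes were lower, 1 of 4 crosslinking genes, 1 of 8 proteoglycans and 2 of 10 cleavage genes were lower, and 1 of 9 receptors was higher and 1 lower.

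Markers of cell types that make collagen were counted between EB_PSC and PSC, where 18.8% of all genes were higher and 25.2% lower. Of 11 fibroblast markers 8 rose against PSC, 1 fell and 2 were not called. Postn measured 5.40, 5.19 and 5.51 in PSC and 11.69 and 11.59 in EB_PSC, and Thy1 fell 2.03-fold. The summed level of the list was 14.39 to 14.55 in EB_PSC, with 1 of the 11 markers dim. Of 10 markers of parietal endoderm and basement membrane 5 were higher and 5 did not pass, with summed levels of 12.45 to 12.46 in PSC, 13.48 to 13.60 in EB_PSC and 12.35 to 12.61 in ESC. Sox17, an endoderm transcription factor, was dim in PSC and rose by at least 6.12 ± 0.14 (limma adjusted p = 2.40e-12), a value that was 1.35 without _x_at and _s_at probe sets. Nid1, which links laminin with type IV collagen, rose 3.45-fold, and Lamb1, a laminin chain gene, rose 2.41-fold. Among those that did not pass, Lama1 differed by 0.07 ± 0.19, Hspg2 by -0.14 ± 0.14 and Lamc1 by -0.45 ± 0.18. Sox7, which also did not pass, was dim in every group, at 4.59 and 4.82 in EB_PSC.

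Of 8 endothelial markers 7 were higher and Pecam1 was lower, with summed levels of 8.41 to 8.75 in PSC, 9.81 to 10.01 in EB_PSC and 8.56 to 8.82 in ESC. Cartilage markers were divided, with 3 of 10 higher, 2 lower and 5 not called, a median difference of -0.29, and summed levels of 8.49 to 8.58 in PSC, 9.58 to 9.60 in EB_PSC and 8.30 to 8.41 in ESC. Hapln1, which links cartilage proteoglycans, rose by at least 5.31 ± 0.13 (limma adjusted p = 7.22e-12). It stood at 8.53 and 8.61 in EB_PSC and so made up a large part of the summed level there. Sox9, dim in PSC, rose by at least 1.41 (limma adjusted p = 8.18e-05) and Sox6 by 0.83 (limma adjusted p = 9.42e-05). With probe sets averaged these were 0.87 and 1.31. Acan, the main cartilage proteoglycan, fell 1.48-fold, Matn3 fell by at least 0.94, and Comp was dim in every group. The part of these cell types in the collagen differences was not tested.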

How the data were processed

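RNA of 3 PSC, 2 EB_PSC and 3 ESC samples was labelled with the Affymetrix One-Cycle protocol, per the labels. The deposited values are log2 signals made by the authors with RMA, per the submitters' processing notes. Its version is not given in the sources used, nor is it stated if all arrays were processed jointly. RMA brings arrays to nearly one distribution (array medians were 5.39 to 5.47), compresses differences of dim probe sets and hides a shift of most transcripts in 1 direction. No further normalization was applied. The number of arrays limits the precision.

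Of 45101 probe sets, 34958 had 1 gene symbol in the platform annotation, 932 several and 9211 none. Genes were fitted with limma 3.58.1 in R 4.3.3 (group means, all 8 arrays, 5 residual and 8.07 prior degrees of freedom), two-sided, with Benjamini-Hochberg adjustment over 18194 genes. The fit was tested on simulated data. Summaries and figures used Python 3.11.15, pandas 2.3.3, NumPy 2.4.6 and Matplotlib 3.10.9. Summed levels are log2 of the sum of unlogged signals of a list. Promoter windows come from RefSeq, assembly GRCm38.p6, which was used for sequence and neighbouring starts only, not to place probe sets.

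Members, classes and lists were chosen with earlier results of these data known. Named with values are members called with a difference of 1 log2 unit or more, all called between PSC and ESC, the genes of types I to IV and Col18a1, and, of each list, called genes from up to 4 with the largest differences, of which only some are given here. Further members and list genes were named after their values were seen. Col6a6, Col21a1 and Col28a1 and the list genes Fkbp10, Adamts2, Adamts14, Itga11, Fbn1 and Loxl2 were not analysed here. The 19 alternatives changed normalization, the filter on dim probe sets, the choice of probe set, the variance prior, array weights, the samples fitted, a replicate block and the threshold, or left out each array in turn.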

Additional observations from a re-analysis of the deposited data

How the results depend on the processing

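Of 158 called results on named genes, 130 kept their call and direction in every alternative other than the 2-fold threshold. Counts of called collagens stayed within 1.5 times except as follows. For PSC against ESC the 2 higher became 1 with the mean of all probe sets, 4 with array weights, 0 at the 2-fold threshold (limma) and 0 to 2 with 1 array left out, 0 without PSC 1, PSC 2 or ESC 1 and 1 without PSC 3, ESC 2 or ESC 3. Over all genes the 1651 higher became 1514, 2537 and 268 in those settings, and 1119 to 1715 with 1 PSC or ESC array left out. The 8 lower collagens became 4 at the 2-fold threshold, where the 2131 lower of all genes became 282. For EB_PSC against PSC the 5 lower became 1 at that threshold and 3 to 5 with 1 array left out, 3 without EB_PSC 1. For EB_PSC against ESC the 3 lower became 1 at that threshold. There the lower of all genes went from 4578 to 1350 for EB_PSC against PSC and from 4652 to 1680 for EB_PSC against ESC. Without EB_PSC 1 fewer of all genes were called lower against PSC, too.

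The labels give no pairing by replicate number, and the numbers were not treated as pairs: deviations of same-numbered arrays correlated at -0.25, -0.07 and -0.04 between PSC and ESC and at -0.15 and 0.04 between EB_PSC and PSC, and at 0.16 and 0.22 between EB_PSC and ESC. With the number as a replicate block the collagens counted 2 higher and 8 lower for PSC against ESC. They counted 16 and 6 for EB_PSC against PSC and 16 and 4 for EB_PSC against ESC. Over all 18194 genes the counts in the same order were 1547 and 2017, 3259 and 4258, and 3346 and 4347.

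Directions turned for differences that were not called, and for Ddr1, a collagen receptor gene, between EB_PSC and ESC without _x_at and _s_at probe sets (0.69 to -0.19). Between PSC and ESC, Col4a3 turned to -0.0093 with repeated quantile normalization, -0.0096 with cyclic loess and -0.0195 with the mean of probe sets, with which Col4a4 turned to 0.0203 and Col4a5 to -0.0788. Col8a1 turned to 0.0315 with array weights. With 1 array left out Col4a3 ran from -0.0630 to 0.1154 and Col8a1 from -0.1996 to 0.0415. Between EB_PSC and PSC, cyclic loess turned Col4a3 to 0.0463 and Col4a6 to 0.0076, and the mean of probe sets turned Col4a3 to 0.0294, Col4a4 to -0.0268 and Col4a6 to 0.0041. With 1 array left out Col4a3 ran from -0.2673 to 0.2376, Col4a6 from -0.3298 to 0.1396 and Col6a1 from -0.1028 to 0.4481. Between EB_PSC and ESC, Col4a3 turned to -0.0170 with quantile normalization and -0.0156 with the replicate block, and Col9a3 to 0.1656 with the mean of probe sets. With 1 array left out Col4a3 ran from -0.2263 to 0.2786, Col4a6 from -0.1253 to 0.3440, Col6a3 from -0.0104 to 0.4876 and Col9a3 from -0.4590 to 0.0037. The cause was not tested. Dim signal limits the differences of 15 collagens, and the number of arrays, 2, limits those of EB_PSC.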
